A study of Mus musculus with 2 samples.

Results

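Mir143, Mir145a and Mir145b were examined in microRNA-seq libraries of embryonic mouse heart. They are 3 of the 1973 miRNA gene rows in each count table, and they were picked out by name, through their Ensembl identifiers in GENCODE on mm10. The libraries hold total RNA of fewer than 30 nucleotides from hearts of healthy B6NCrl embryos aged 13.5 days, with male and female embryos pooled. There is 1 group of 2 libraries, replicate 1 and replicate 2, from separate biosamples of 1 donor record, and no treatment, mutant or second age. Sense counts, those on the strand of the gene, totalled 5569959 in replicate 1 and 6039005 in replicate 2, and levels are given as counts per 1000000 sense counts (CPM). All 3 members have a row in both tables, and 2 of the 3 passed a mean of 10 CPM. With 1 group no test between conditions exists, so values carry the SD over the libraries (n = 2) or an exact 95% counting interval, and no p-value. The intervals cover counting error within a library only. They take reads as independent, and PCR copies are not independent molecules, so they may be too narrow even for that.

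Mir143 and Mir145a are neighbouring miRNA genes known to be made from a common primary transcript, which is cut into separate hairpins. In mouse the pair is known from smooth muscle of vessels and gut, where serum response factor and myocardin drive it and its miRNAs favour the contractile over the proliferative state. miR-145 is known to repress Klf4 and Klf5, transcription factors that oppose the contractile programme, and miR-143 is known to repress Elk1, a factor linked to proliferation. In the mouse embryo the pair is also known from cardiac progenitors and the early heart, before it becomes restricted to smooth muscle. Mir145b is a separate gene named for its likeness to Mir145a.

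The miRNAs set beside Mir143 below were chosen for their closeness in level (Mir335, Mir322, Mir126a and Mir99a), as the highest row of the heart muscle list (Mir208b), or as a smooth muscle miRNA with nearly the same ratio between the libraries (Mir21a). The let-7c sequence is shown because Mirlet7c-1 is the low partner of Mir99a, a pair that is compared with Mir143 and Mir145a further on. Sequences are from RefSeq on GRCm38.p6, written 5′ to 3′ with the seed, bases 2 to 8, in capitals. All 8 of these genes had an entry there, and Mir143, Mir145a and Mir145b had none. The count tables hold 1 value per gene, so which arm gave the reads was not analysed here.
miR-335-5p: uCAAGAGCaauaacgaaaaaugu
miR-335-3p: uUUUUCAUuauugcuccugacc
miR-322-5p: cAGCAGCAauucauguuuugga
miR-322-3p: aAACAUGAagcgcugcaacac
miR-126a-3p: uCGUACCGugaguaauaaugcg
miR-99a-5p: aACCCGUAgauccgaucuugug
miR-99a-3p: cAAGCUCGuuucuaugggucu
miR-208b-3p: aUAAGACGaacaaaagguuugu
miR-208b-5p: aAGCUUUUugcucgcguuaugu
miR-21a-5p: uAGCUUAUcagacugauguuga
let-7c-5p of Mirlet7c-1: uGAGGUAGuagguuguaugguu
let-7c-5p of Mirlet7c-2: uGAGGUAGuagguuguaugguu
No seed was shared among the lines above except by the let-7c entries, which are identical over all 22 bases although they come from different chromosomes.

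Mir143 held the second most sense counts of all miRNA gene rows in each library. This order is among the deposited rows, since 26.9% of all reads in replicate 1 and 28.0% in replicate 2 form a separate class of reads that mapped to several places. It held 469370 sense counts in replicate 1 (84268 CPM, exact Poisson 95% interval 84027 to 84510) and 559218 in replicate 2 (92601 CPM, 92358 to 92844). Its mean was 88435 ± 5892 CPM (SD, n = 2), so that 8.84% ± 0.589 of the sense reads came from this gene. In bulk tissue, a gene that is high in few cells and one that is moderate in many cells cannot be told apart, and a smaller number of cells of a type looks the same as less RNA per cell.

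Mir145a, the downstream hairpin, was present at a far lower level. It held 4832 sense counts in replicate 1 (868 CPM, 843 to 892) and 5621 in replicate 2 (931 CPM, 907 to 955), with a mean of 899 ± 44.7 CPM (SD, n = 2). It ranked 86 in replicate 1 and 79 in replicate 2, and 83 by mean. Mir143 and Mir145a were both higher in replicate 2, and their ranges lay far apart in both libraries. Whether reads of Mir145a or Mir145b fell in the class that mapped to several places was not tested.

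Mir145b was at the edge of detection. It held 1 sense count in replicate 1 (0.180 CPM, 0.00455 to 1.00) and 0 in replicate 2. A count of 0 is taken here to allow up to 3 counts, or 0.497 CPM in replicate 2, and the upper end of the exact Poisson interval there is 0.611 CPM. A single count in 1 of 2 libraries gives no level for this gene at this depth. Rows at 0 in both libraries were common, with 1281 such genes.

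**Figure D1:**
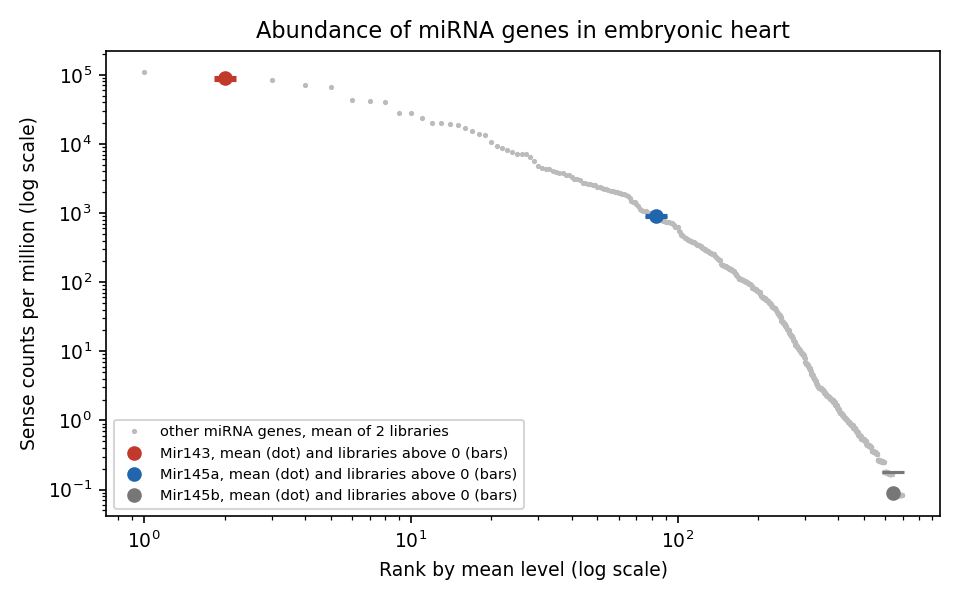
Mean sense CPM (log scale) of every miRNA gene with a count, by rank (log scale), with the members in colour, dots for means and horizontal bars for single libraries above 0. Mir143 sits at rank 2 near 88435 CPM, Mir145a at rank 83 near 899 CPM, and Mir145b at the low end, where its only bar is the 1 count of replicate 1.

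Within the cluster, Mir143 exceeded Mir145a by nearly the same factor in each library. Replicate 1 gave a ratio of 97.1 (Clopper-Pearson 95% interval 94.4 to 99.95), and replicate 2 gave 99.5 (96.9 to 102). The mean log2 ratio was 6.62 ± 0.0244 (SD, n = 2), or 98.3-fold, and the intervals of the libraries overlap. Mir145a thus made up 1.02% of the members' counts in replicate 1 and 0.995% in replicate 2. These are ratios of reads, and whether both miRNAs entered the libraries equally well was not tested. An unequal entry shared by both libraries would show in neither the SD nor the intervals. The same holds for ranks and for other folds between miRNAs given here.

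Both expressed members also stood far above Mir145b. In replicate 1 the ratio of Mir145a over Mir145b was 4832, with a counting interval of 867 to 190893 that reflects the single count. In replicate 2 Mir145a was at least 1874-fold higher, on the 3 counts that a count of 0 allows. Summed, the members took 8.51% of replicate 1 (Clopper-Pearson 95% interval 8.49 to 8.54) and 9.35% of replicate 2 (9.33 to 9.38), a mean of 8.93% ± 0.594.

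On the chromosome Mir143 and Mir145a lie together and Mir145b lies apart. Coordinates are 1-based on mm10 from GENCODE M21. Mir143 (ENSMUSG00000065445) is a hairpin of 63 nucleotides at chr18:61649196-61649258 on the minus strand, and Mir145a (ENSMUSG00000065592), of 70 nucleotides, is at chr18:61647825-61647894 on that strand. Mir143 is therefore the 5′ member, with 1301 nucleotides between the hairpins. Mir145b (ENSMUSG00000098366), of 75 nucleotides, lies at chr18:69022199-69022273, also on the minus strand but 7.37 megabases from Mir143. At that distance Mir145b is not part of the cluster, and the cluster proper holds 2 genes.

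No other annotated gene overlaps any of the 3 hairpins, so in this annotation they lie in neither an exon nor an intron nor a UTR. The long noncoding RNA gene Carmn, whose transcript is known as the host of the pair, is annotated on the minus strand at chr18:61649625-61665537 and stops 366 nucleotides before Mir143. On the other flank, Bvht, a long noncoding RNA known from cardiac lineage commitment in mouse, lies on the plus strand and ends 352 nucleotides from Mir145a. Neither flanking gene has a row in these tables.

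Mir143 and Mir145a held 0 counts on the opposite strand in both libraries, and so did Mir145b. Summed over all 1973 rows, 290535 counts lay opposite to the gene in replicate 1 and 330013 in replicate 2. Of these, 193535 and 236922 lay at 1 row, Gm25301. A count of 0 is not particular to the members. Mir322, Mir99a and Mir208b also held 0 in both libraries, while Mir335 held 2 and 3 and Mir126a 31 and 17. The members' values are thus free of any choice between sense counts and counts on both strands, apart from the total they are divided by.

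Few other reads on chromosome 18 were counted in the sense direction. Of its 50 rows, 13 held a sense count in replicate 1 and 15 in replicate 2, and the members took 99.6% and 99.2% of those counts. The nearest row below Mir145a, Gm25301, lies 249.9 kilobases away and had 0 sense counts, against 193535 and 236922 counts on its opposite strand. The nearest row above Mir143 is Mir122, a miRNA of hepatocytes, 3599.6 kilobases away. It held 201 CPM in replicate 1, against 591 CPM in replicate 2. The nearest rows to Mir145b, Mir6356 and Mir6357, had 0 counts in both libraries.

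In the order of levels, Mir143 lay between Mir335, in an intron of the imprinted gene Mest, and Mir322, a miRNA of the miR-15 seed group known from muscle differentiation. Mir143 was below Mir335 in both libraries, with 84268 against 108334 CPM in replicate 1 and 92601 against 111799 CPM in replicate 2, a log2 ratio of Mir143 over Mir335 of -0.32 ± 0.0641 (SD, n = 2). Mir143 was above Mir322, with 84268 against 77629 CPM in replicate 1 and 92601 against 90777 CPM in replicate 2. The difference of their means, 4231 CPM, was smaller than the SD of either gene, and the log2 ratio of 0.07 ± 0.0634 barely exceeded its own SD.

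The endothelial Mir126a, whose host gene Egfl7 is expressed by vessel lining cells, came next. Mir143 exceeded it 1.26-fold, with 84268 against 74876 CPM in replicate 1 and 92601 against 66025 CPM in replicate 2. The log2 ratio of Mir143 over Mir126a was 0.33 ± 0.225. Mir99a followed at 65577 ± 946 CPM, and the log2 ratio of Mir143 over Mir99a was 0.43 ± 0.117. The order of these 5 genes was the same in both libraries.

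Mir145a lay in a denser part of the order, where neighbours had similar levels. Above it by mean were Mir467d (941 ± 116 CPM), Mir467c (938 ± 11.6 CPM) and Mirlet7f-2 (928 ± 90.8 CPM). Mir429 (884 ± 156 CPM), Mir434 (872 ± 73.7 CPM) and Mir467e (843 ± 17.4 CPM) lay below it. In replicate 1 Mir145a was below Mir429 and Mir434, with 868 CPM against 994 and 924 CPM, and in replicate 2 it was above them, with 931 CPM against 773 and 820 CPM. Of these 6 neighbours, Mir467e was the one from which Mir145a differed in the same direction in both libraries by more than the SD (log2 ratio 0.09 ± 0.0421).

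Set beside the miRNAs of heart muscle, Mir143 was 2.06-fold above Mir208b, the miRNA in an intron of the fetal myosin gene Myh7. The log2 ratio of Mir143 over Mir208b was 1.04 ± 0.0382 (SD, n = 2), with 84268 against 41742 CPM in replicate 1 and 92601 against 44185 CPM in replicate 2. Mir143 was 12.2-fold above Mir208a of the Myh6 intron and 48.7-fold above Mir499 of the Myh7b intron. Mir145a was below all 3 of them. The presence of these myosin miRNAs is what these tables offer as a check of the heart label. Protein-coding markers of smooth muscle have no row here, so the label smooth muscle for Mir143 and Mir145a rests on background knowledge and was not tested.

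Mir1a-1 held 25 counts in replicate 1 and 22 in replicate 2, Mir133a-1 held 11 and 23, and Mir133a-2 held 0 in both. The mature miRNAs of these heart muscle rows come from more than 1 locus, and multi-mapping reads are listed as a class apart in the tables. The ratio of the summed members over the summed heart muscle list, 0.78 ± 0.0436 on the log2 scale, therefore describes the deposited rows. Whether reads of Mir143, Mir145a or Mir145b were among the multi-mapping ones was not tested.

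Of the other cell type lists, the mesenchyme and fibroblast miRNAs lay far below Mir143. Mir143 was 32.2-fold above Mir214, which held 2757 ± 333 CPM, and Mir199b held 399 ± 49.5 CPM. Mir199a-2 held 44.9 ± 1.71 CPM and Mir199a-1 held 23 counts in replicate 1 and 11 in replicate 2. Mir199b, Mir199a-1 and Mir199a-2 share a run of 20 nucleotides with another miRNA locus, and how that bears on their counts was not tested. Against the summed list the members were higher by a log2 ratio of 4.80 ± 0.270. The members exceeded the erythroid list by a log2 ratio of 6.34 ± 0.375, with Mir451a at 775 ± 117 CPM, near the level of Mir145a. The leukocyte list had 1 of its 2 miRNAs in the tables, Mir223, at 375 ± 92.6 CPM.

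Of 15 further symbols of miRNAs known from smooth muscle phenotype, 13 had a row and 12 passed a mean of 10 CPM. Summed, they took 4.66% ± 0.231 of sense counts, and the members exceeded them 1.91-fold (log2 0.94 ± 0.168). Mir21a, known in rat to favour growth of smooth muscle cells after vessel injury, led at 17004 ± 1115 CPM (16216 CPM in replicate 1, 17793 CPM in replicate 2). Mir23b held 15364 ± 1398 CPM, Mir22 8852 ± 1362 CPM and Mir10a 4407 ± 631 CPM.

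The rest of that list lay below Mir145a. Mir24-2, Mir195a, Mir34a and Mir204 held between 297 ± 9.90 CPM and 100.5 ± 1.20 CPM. Mir221 and Mir222, neighbours on the X chromosome known to drive smooth muscle proliferation, held 41.9 ± 9.58 and 24.7 ± 6.77 CPM. Mir143 was 2137-fold above Mir221 and 3652-fold above Mir222. Mir146 held 49.98 ± 21.7 CPM, Mir26a-2 held 26.1 ± 0.152 CPM and Mir26a-1 held 5.80 ± 2.11 CPM, and these last 3 rows share a run of 20 nucleotides with another miRNA locus, as do Mir23b and Mir24-2. How that run bears on their counts was not tested.

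**Figure D2:**
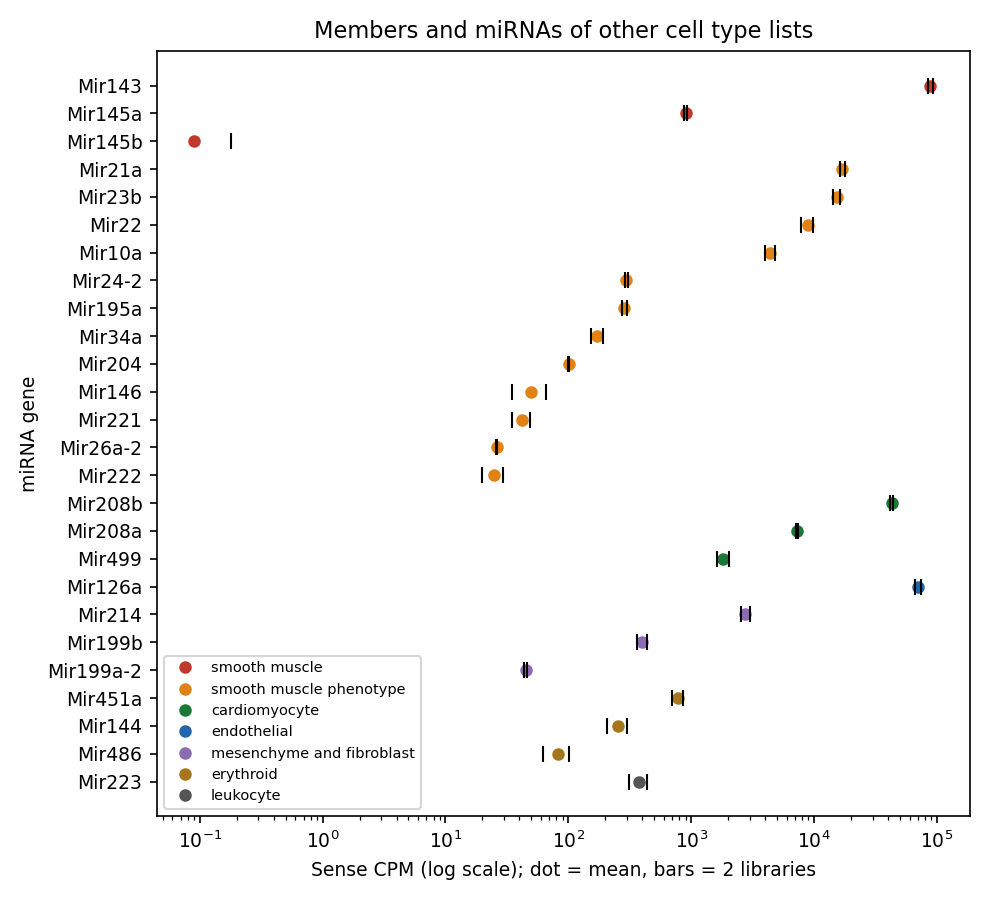
Sense CPM (log scale) of the members and of list miRNAs whose mean reached 10 CPM, by list, with dots for the mean and bars for the 2 libraries (a bar is absent at 0). Mir143 is the rightmost gene, Mir126a and Mir208b come closest to it, and Mir145a lies level with Mir451a.

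Between the libraries, both expressed members were slightly lower in replicate 1. The log2 ratio of replicate 1 over replicate 2 was -0.14 for Mir143 and -0.10 for Mir145a, with 1 CPM added before the log. The exact 95% intervals, from counts without that addition, were -0.14 to -0.13 for Mir143 and -0.16 to -0.05 for Mir145a. Neither gene reached a ratio of 1.5, the threshold for a gene called different between the libraries. Of the 288 genes whose mean reached 10 CPM, 17 were called, or 5.90%, and 0 of the 2 members at that level were among them. Each side of this comparison is 1 library, so it describes these libraries and no condition.

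The median of the 288 log2 ratios was itself 0.10, and the median absolute ratio was 0.16. Relative to that median, Mir143 lay at -0.24 and Mir145a at -0.20. Of the 288 genes, 244 had a higher ratio than Mir143 and 43 a lower one, and 227 had a higher and 60 a lower ratio than Mir145a. The members therefore lay on the low side of the distribution for replicate 1, inside its range of -1.55 to 1.18.

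Some other lists had ratios of the opposite sign to the members, as did the median of all 288 genes, 0.10. A positive ratio is thus not particular to these lists. All 3 erythroid miRNAs were higher in replicate 1, with a median log2 ratio of 0.55, and 1 of them, Mir486, was called (0.71). The leukocyte Mir223 had 441 CPM in replicate 1 and 310 CPM in replicate 2, and Mir126a had a log2 ratio of 0.18. The 3 heart muscle miRNAs above 10 CPM had a median of -0.08, and the smooth muscle phenotype list had a median of 0.16 with 1 of 12 genes, Mir146, called. Over all 288 genes the called share was 5.90%. The part of blood or vessel content in the members' ratio was not tested.

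**Figure D3:**
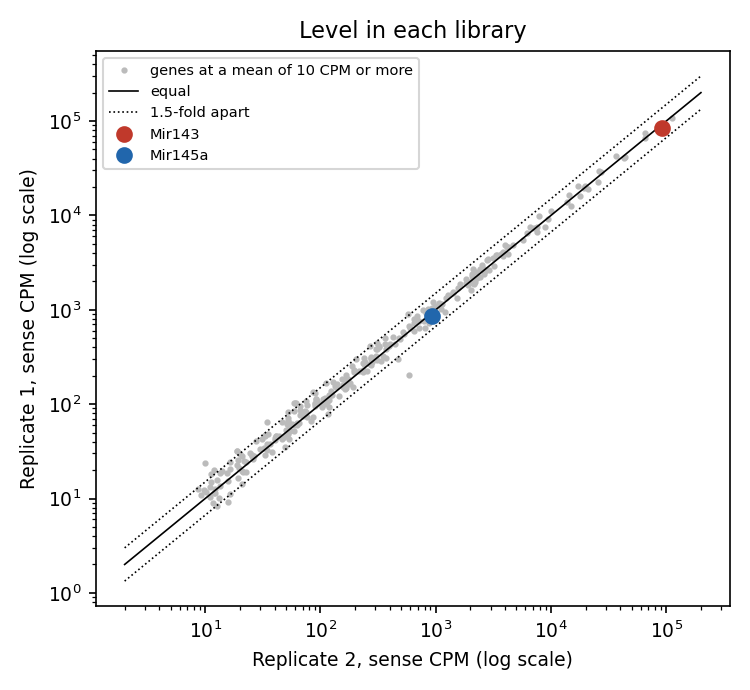
Sense CPM of genes whose mean reached 10 CPM, in replicate 1 (vertical, log scale) against replicate 2 (horizontal, log scale), with lines for equality and for a ratio of 1.5. Mir143 and Mir145a lie just below the line of equality and inside the dotted lines. Of the 288 genes, 17 were called with 1 CPM added, which the drawn lines leave out.

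Likeness to the members was measured as the absolute difference in log2 replicate 1 over replicate 2 ratio among genes whose mean reached 100 CPM. It rests on 2 libraries and is a description of these libraries alone. Of 181 genes compared with Mir143, the nearest were Mir31, Mir21a and Mir532, each within 0.0043. Nearest to Mir145a were Mir106b, Mir669c and Mir185, each within 0.0027. Mir145a came at place 18 in likeness to Mir143, with a difference of 0.0346, and Mir143 at place 22 in likeness to Mir145a. The counting interval of the Mir145a ratio alone, -0.16 to -0.05, is wider than any of these differences, so the places are not resolved.

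The gap within the cluster was set beside those of other genomic clusters, defined as miRNA genes on 1 strand whose neighbours start at most 10000 nucleotides apart. In 41 clusters the highest gene reached a mean of 100 CPM. The gap, log2 of highest over second highest mean CPM with 1 CPM added, was 6.62 for Mir143 over Mir145a, against a median of 3.05 and a range of 0.0042 to 9.31 over all 41. The cluster of Mir143 stood at place 7 of 41, and also at place 7 of the 29 clusters that hold 2 genes.

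The 6 clusters with a larger gap fall into groups of 3. In 3 of them the second gene shares a run of 20 nucleotides with another miRNA locus. Such runs were common, since only 24 of all 41 clusters had a second gene that shares none or had no sequence used. The 3 with a larger gap and a shared run are Mir99a over Mirlet7c-1 (65577 against 103 CPM), Mir30e over Mir30c-1 (24096 against 74.2 CPM) and Mirlet7d over Mirlet7a-1 (10621 against 87.6 CPM). The identical let-7c sequences of Mirlet7c-1 and Mirlet7c-2 printed above are an example of such a run. In the other 3, led by Mir328, Mir199b and Mir1306, the second gene is a predicted gene without a miRNA name, at 0 to 0.773 CPM.

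Mir145a, at 899 CPM, was higher than the second gene in each of the 6 clusters with a larger gap. This follows from the choice of clusters and is no separate result. Mir143, at 88435 CPM, was above the highest gene of each, so a larger gap requires a lower second gene. Whether Mir145a shares such a run was not analysed here.

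Order along the strand showed no common rule. Mir143 is the first hairpin of its cluster in the direction of transcription, and the highest gene was the first in 18 of 41 clusters and in 13 of the 29 clusters of 2 genes.

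**Figure D4:**
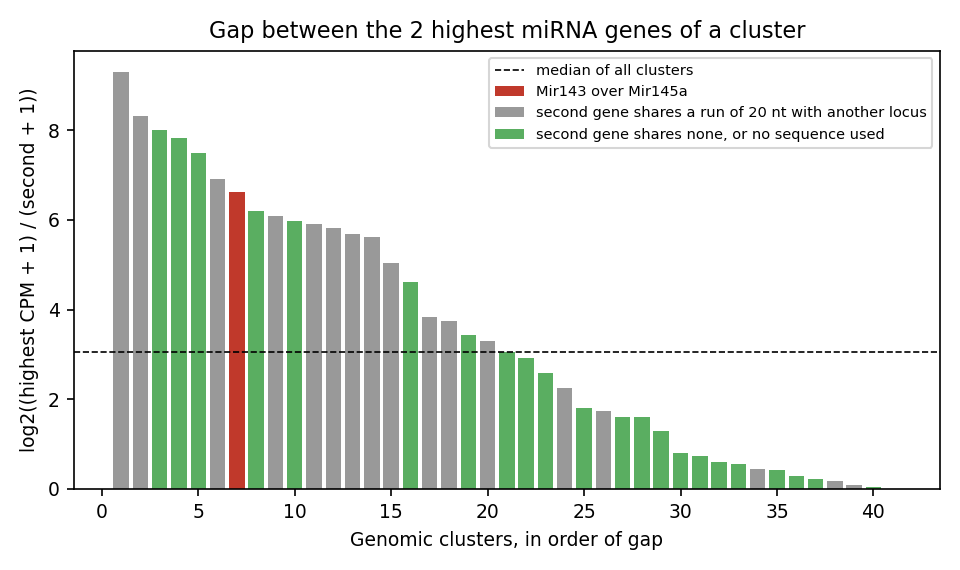
Gap between the 2 highest miRNA genes in each of 41 genomic clusters, as log2 of their CPM ratio with 1 CPM added, in order of size, with grey bars where the second gene shares a run of 20 nucleotides with another miRNA locus. The cluster of Mir143 and Mir145a stands at place 7 with 6.62, above the dashed median of 3.05.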

How the data were processed

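The authors deposited 1 table of read counts per library, with 1973 miRNA gene rows and 4 read classes. The deposited notes name mm10 as the build and GENCODE M4 as the annotation. How reads were trimmed, aligned and counted is not given in the sources used. Columns hold counts on both strands, the sense strand and the opposite strand. The read classes were left out of library sizes. Of all reads, 21.2% were unmapped and 26.9% multi-mapping in replicate 1, against 17.2% and 28.0% in replicate 2. Reads outside genes were 3.60% and 2.92%. Identifiers were matched without version to GENCODE M21 (1894 of 1973 matched), and hairpins to the RefSeq miRNA table by symbol (869 rows matched).

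From the counts, CPM on sense totals, exact Poisson and Clopper-Pearson 95% intervals, and means with SD (n = 2) were computed with Python 3.11.15, numpy 2.4.6, pandas 2.3.3 and scipy 1.17.1. Alternatives used TMM factors (edgeR 4.0.16) and size factors (DESeq2 1.42.0) in R 4.3.3. Plots used matplotlib 3.10.9. The ratio step was tested on simulated data.

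Genes named are the members, the fixed lists, the 3 genes above and below Mir143 and Mir145a in level, the 3 most alike in replicate ratio, leaders of clusters with a larger gap, and chromosome neighbours. Seed sharing with the members was not analysed here. The members and lists were chosen with earlier results of these data known.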

Additional observations from a re-analysis of the deposited data

How the results depend on the processing

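Of 83 recomputed values, 62 stayed within 1 SD between libraries, within their counting interval or, for counts, within 1.5 times. For values judged by the SD, dropping 1 of 2 libraries always stays within it, so those runs tested nothing. No log2 ratio changed sign, and levels, shares, ranks and counts have no sign to change. The rank of Mir143 stayed at 2 in every alternative run for it. Its ratio over Mir145a could not leave 1 SD in the alternatives run. Both genes have 0 opposite counts, so adding that strand changes nothing, and the other runs dropped 1 of 2 libraries. With all reads as library size the levels became 42102 CPM for Mir143 and 428 CPM for Mir145a, and the members' share 4.25%. Counts on both strands gave Mir145a 854 CPM. Without Mir335 in the total the share was 10.04%. TMM, DESeq2 and all-read scaling moved the replicate 1 over replicate 2 log2 ratio to -0.24, -0.25 and -0.24 for Mir143 and to -0.20, -0.22 and -0.20 for Mir145a, through the shift of the whole distribution. Genes past the ratio between libraries numbered 9 with all reads as library size, 70 at a minimum of 1 CPM, 6 at 100 CPM, 139 with no minimum and 2 at a ratio of 2. Without rows that share a run of 20 nucleotides, the members stood above the smooth muscle phenotype list by 1.53 on the log2 scale. Clusters with a larger gap than that of Mir143 numbered 3 with a highest gene of 1000 CPM or more, 2 without genes that share a run, 3 without predicted genes and 0 without both, the last 2 chosen after seeing the data. These removals take out second genes of the very clusters that had a larger gap, so the lower counts follow from the choice and support nothing about Mir143. Fewer clusters were compared under these settings.

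No paired analysis was possible because there is 1 group. With 2 libraries the SD itself is poorly known, and 1 count of Mir145b gives no level at this depth.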
